A study of Mus musculus with 4 samples.

Results

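The B cell receptor (BCR) signaling genes described here are Cd79a, Cd79b, Cr2, Cd22, Lyn, Syk, Btk, Blnk and Plcg2, which are 9 of the 32285 genes counted in single-cell RNA libraries of mouse draining lymph nodes. They were taken by name as parts of the receptor and of its first signaling steps. No measured value entered that rule, although the choice was made with earlier results of these data known. The 2 EV libraries came from wild-type C57BL/6 mice given 100 µg of extracellular vesicles (EVs) under the skin. EVs are membrane-bound particles that cells release, and these were released by induced pluripotent stem cells (iPSCs). The 2 control libraries came from wild-type C57BL/6 mice that received PBS by the study's methods and no treatment by the sample labels. The series text and the study's methods give 5 days between injection and harvest, whereas the labels of all 4 libraries give 24 h, and the files do not settle which holds. Each library is 1 biological replicate, and the sources used here do not say whether a replicate was 1 mouse or a pool, and give no age. The p-values of EV against control below therefore measure the spread between these 4 libraries. Tests between gates block on library, so their p-values measure the spread within libraries and not between them. In both kinds of test edgeR estimates the spread partly from the other genes. In the main tests of Jchain-high against Fcer2a-positive B cells, defined below, it came wholly from the trend over all genes. A gene's own spread within libraries had no weight in the p-values of those tests.

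The BCR is a membrane immunoglobulin held together with a heterodimer of Cd79a and Cd79b, whose cytoplasmic tails carry the tyrosine motifs that start the signal. Antigen binding lets the Src family kinase Lyn phosphorylate these tails, Syk docks on them, and Syk then acts through the adaptor Blnk and the kinase Btk on the phospholipase Plcg2, which raises calcium and activates protein kinase C. Cr2, the complement receptor CD21, lowers the threshold for signaling when antigen carries complement, and Cd22 is a lectin receptor that recruits phosphatases and damps the signal. Fcer2a encodes CD23, a low-affinity IgE receptor carried by naive follicular B cells, and Jchain encodes the joining chain of secreted IgM and IgA.

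Levels were taken in 3 gates of cells. B cells had at least 1 UMI (unique molecular identifier, a tag that counts each captured mRNA molecule once) of Ms4a1, which encodes CD20, and none of Cd3d, Cd3e and Cd3g. They were divided into 10951 Fcer2a-positive B cells, with at least 1 UMI of Fcer2a, and 2556 Fcer2a-negative B cells, with none. The third gate held the 75 cells with at least 5 UMIs of Jchain and none of Cd3e, called Jchain-high cells, of which 57 also had an Ms4a1 UMI. A level is given as CPM, the gene's UMIs per 1000000 UMIs summed over the cells of a gate in 1 library. The method reads only the 3′ end of each mRNA, and levels are not compared between genes.

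The libraries held 8297 to 9000 barcodes and 50749656 to 70418672 UMIs, and 94.2% to 97.4% of the barcodes passed the limits on cells. Pairs of libraries shared 12 to 26 barcodes. Cells of the EV libraries were deeper, with a median of 5965 and 5733 UMIs per Fcer2a-positive B cell in EV libraries 1 and 2 and of 4244 and 4969 in control libraries 1 and 2. Fcer2a-positive B cells made up 27.4% and 24.4% of the control cells and 42.6% and 38.9% of the EV cells, and Fcer2a-negative B cells 5.44% and 4.85% against 12.7% and 8.14%. The exact two-sided permutation p of each share was 0.33, the smallest that 2 libraries against 2 allow, so that no share could reach 0.05. The Jchain-high gate held 8 and 15 control cells and 25 and 27 EV cells, with only 56028 UMIs in control library 1. The sum of 11 heat shock and dissociation genes was higher in both EV libraries than in both control libraries, at 3099 and 3226 against 1850 and 2017 CPM in Fcer2a-positive B cells, and its part in the EV comparisons was not tested. Members were near 0 in T cells, at 1.13 to 23.4 CPM over all members and libraries. They were not all near 0 in cells with at least 3 UMIs of C1q genes and none of Ms4a1 or the Cd3 genes. There Lyn was at 86.7 to 558 CPM and Syk at 65.0 to 266, and the other members were at 0 to 175. This gate held only 34 to 67 cells per library.

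On the mouse build mm10 (GRCm38), with positions from GENCODE M21, Cd79a lies at chr7:24897381-24902197 on the plus strand and Cd79b at chr11:106311341-106314762 on the minus strand. Cr2 lies at chr1:195136811-195176716 on the minus strand and Cd22 at chr7:30865402-30880342 on the minus strand. The kinase genes lie at chr4:3678115-3813122 on the plus strand (Lyn), chr13:52583173-52648792 on the plus strand (Syk) and chrX:134542336-134583570 on the minus strand (Btk). Blnk lies at chr19:40928927-40994535 on the minus strand and Plcg2 at chr8:117498291-117635142 on the plus strand. RefSeq promoter sequence of build GRCm38.p6 was matched for 7 of the 9 members, and none was matched for Cd79b and Lyn. The upstream sequences of Cr2 and Cd22 are printed because these were the 2 members called lower in Fcer2a-negative than in Fcer2a-positive B cells. They run 5′ to 3′ on the minus strand, from chr1:195176720-195176969 for Cr2 and from chr7:30879029-30879176 for Cd22, whose remaining upstream bases lie in annotated exons.
Cr2: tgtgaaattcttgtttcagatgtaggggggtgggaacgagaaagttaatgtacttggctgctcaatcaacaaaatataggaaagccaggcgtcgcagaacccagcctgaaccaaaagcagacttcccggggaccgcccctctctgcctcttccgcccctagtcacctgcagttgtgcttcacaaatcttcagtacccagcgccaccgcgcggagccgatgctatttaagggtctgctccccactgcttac
Cd22: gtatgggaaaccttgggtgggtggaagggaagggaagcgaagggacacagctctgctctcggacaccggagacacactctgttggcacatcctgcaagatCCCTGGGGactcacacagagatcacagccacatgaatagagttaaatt
The capitals in Cd22 mark a match to the EBF-like motif CCCNNGGG, 48 to 41 bases before the start. In the 250 bases before each start, 3 motifs were searched on both strands, namely CCCNNGGG, the octamer ATGCAAAT and the ETS-like motif AGGAAGT, which were present in 11.8%, 1.6% and 7.69% of 32851 promoters of that length. Blnk held the octamer and the ETS-like motif and Cd79a held the ETS-like motif, all in bases that lie in annotated exons. No match lay in these windows of Cr2, Syk, Btk and Plcg2. A match is a description of the letters and not a mapped binding site.

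The first comparison asked whether BCR signaling genes differed between EV-treated and control mice within the same kind of B cell. None of the 9 members passed the test in either B cell gate. The kinases Lyn and Syk had the largest positive log2 fold changes beside the adaptor Blnk, whereas the receptor chain Cd79a lay close to 0 in both gates and Cr2 was lower in the mean of the EV libraries with a wide spread. In Fcer2a-positive B cells 3.23% of 12628 genes were called, and in Fcer2a-negative B cells 1.04% of 10172 genes, by edgeR's quasi-likelihood test at an adjusted p under 0.05, against 0 of 9 members in each. At an unadjusted p under 0.05 the count was 2 of 9 in each gate, where 18.5% and 12.0% of all genes tested were under it. The median log2 fold change of the members was 0.09 and 0.10 in the 2 gates, and that of all genes tested was -0.00 in both. DESeq2 called 1 member, Lyn in Fcer2a-positive B cells, with an adjusted p of 0.0411. It called 367 of 20767 genes in that gate.

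**Figure D1:**
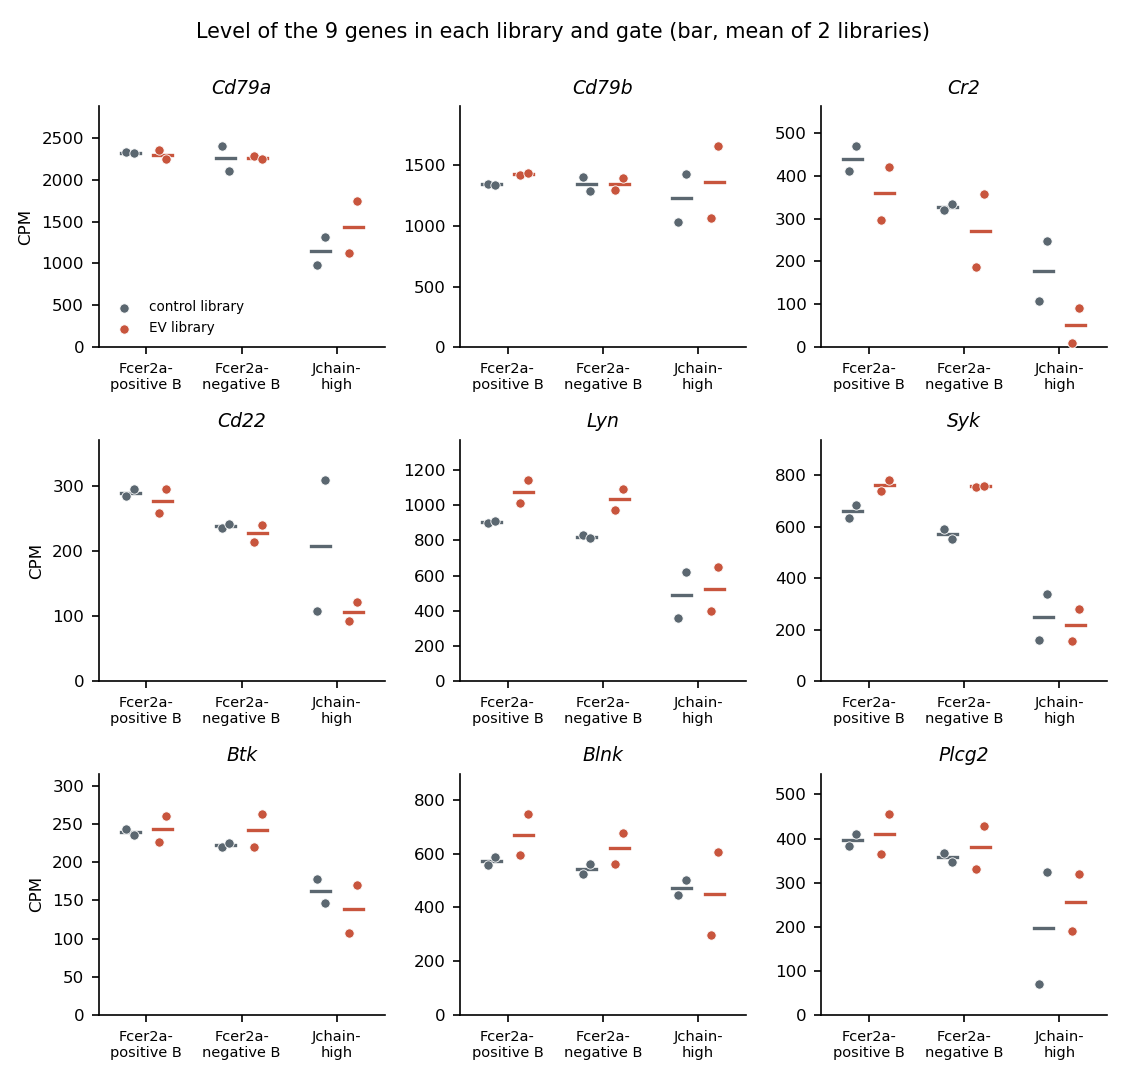
Level of each of the 9 genes in CPM (vertical axes from 0) in Fcer2a-positive B cells, Fcer2a-negative B cells and Jchain-high cells. Each point is 1 library, gray for control and red for EV, and each bar is the mean of 2 libraries. For Syk and Lyn both EV points lie above both control points in the 2 B cell gates, and for Cr2 the EV libraries lie far apart, at 297 and 420 in Fcer2a-positive B cells.

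Cd79a, the signaling chain Igα, had a level of 2325 and 2319 CPM in Fcer2a-positive B cells of the 2 control libraries, and EV libraries 1 and 2 had 2349 and 2246. The control values lay between the EV values, and the log2 fold change was 0.03 (95% interval -0.24 to 0.30), although the mean of the EV levels was the lower one, because the fit rescales the libraries by TMM factors. Its partner Cd79b, Igβ, had 1344 and 1337 in the control libraries against 1418 and 1437 in the EV libraries, without overlap, and the log2 fold change of 0.14 was not called (edgeR adjusted p = 0.565). The log2 fold changes in Fcer2a-negative B cells of Cd79a and Cd79b were 0.02 and 0.01.

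Cr2 separated the EV libraries from each other more than it separated the groups. In Fcer2a-positive B cells its level was 410 and 468 CPM in the control libraries, against 297 in EV library 1 and 420 in EV library 2. The Fcer2a-negative B cells had 321 and 335 against 187 and 356. EV library 1 was the lowest of the 4 in both gates, while EV library 2 lay within the control range in the first and above it in the second. The log2 fold changes were -0.25 (-0.58 to 0.08) and -0.27 (-0.75 to 0.21), not called. Without EV library 2 the difference in Fcer2a-negative B cells was -0.78 and was called (edgeR adjusted p = 0.0015), and without EV library 1 it was 0.12. With a library left out, its arm holds 1 library, whose spread is assumed to equal that of the other libraries, here and in each such value below. The inhibitory receptor Cd22 was at 284 and 295 in control against 259 and 295 in EV Fcer2a-positive B cells, and at 235 and 242 against 214 and 240 in Fcer2a-negative B cells. The groups overlapped in both gates, with log2 fold changes of -0.02 and -0.06.

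The kinases at the start of the cascade, Lyn and Syk, were higher in both EV libraries than in both control libraries in both gates. The level of Lyn was 897 and 912 CPM in control and 1010 and 1141 in EV Fcer2a-positive B cells, and at 829 and 814 against 974 and 1093 in Fcer2a-negative B cells. Its log2 fold changes were 0.30 (0.04 to 0.55, edgeR adjusted p = 0.204) and 0.34 (0.04 to 0.64, edgeR adjusted p = 0.339). Syk was at 634 and 686 against 739 and 781 in Fcer2a-positive B cells and at 593 and 554 against 755 and 760 in Fcer2a-negative B cells. Its log2 fold changes were 0.25 (0.01 to 0.49, edgeR adjusted p = 0.251) and 0.42 (0.12 to 0.71, edgeR adjusted p = 0.213). By edgeR neither kinase was called, although the intervals, which are not adjusted for the number of genes, lay above 0. Btk, the Tec family kinase that activates Plcg2, was at 243 and 236 against 227 and 260 in Fcer2a-positive B cells, with overlap, and its log2 fold changes were 0.07 and 0.13.

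Blnk, the scaffold that Syk phosphorylates, was at 557 and 588 in control and 594 and 748 in EV Fcer2a-positive B cells. Its level in Fcer2a-negative B cells was 525 and 562 against 562 and 678. The EV libraries were above the control libraries in each gate, by a very small margin for EV library 1. The log2 fold changes were 0.27 (-0.00 to 0.55, edgeR adjusted p = 0.272) and 0.20 (-0.10 to 0.51, adjusted p = 0.624). Plcg2 was at 383 and 409 against 364 and 456 in Fcer2a-positive B cells, with the control libraries between the EV libraries, and its log2 fold changes were 0.09 and 0.10. In all, 4 members (Cd79b, Syk, Blnk and Lyn) did not overlap between the groups in Fcer2a-positive B cells and 3 (Syk, Blnk and Lyn) in Fcer2a-negative B cells, each higher with EV. Of all genes tested, 50.8% and 42.6% did not overlap in these gates, so such a separation was common in these libraries.

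Whether the EV effect on a member differed between the B cell gates was tested by an interaction term in a fit that blocks on library. None of the 9 members was called, against 0.0575% of 12164 genes. The member nearest the threshold was Syk, whose effect was 0.18 larger on the log2 scale in Fcer2a-negative B cells (0.02 to 0.33, edgeR adjusted p = 0.76). Without control library 1 this difference for Syk was 0.30 and was called (adjusted p = 0.00413).

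**Figure D2:**
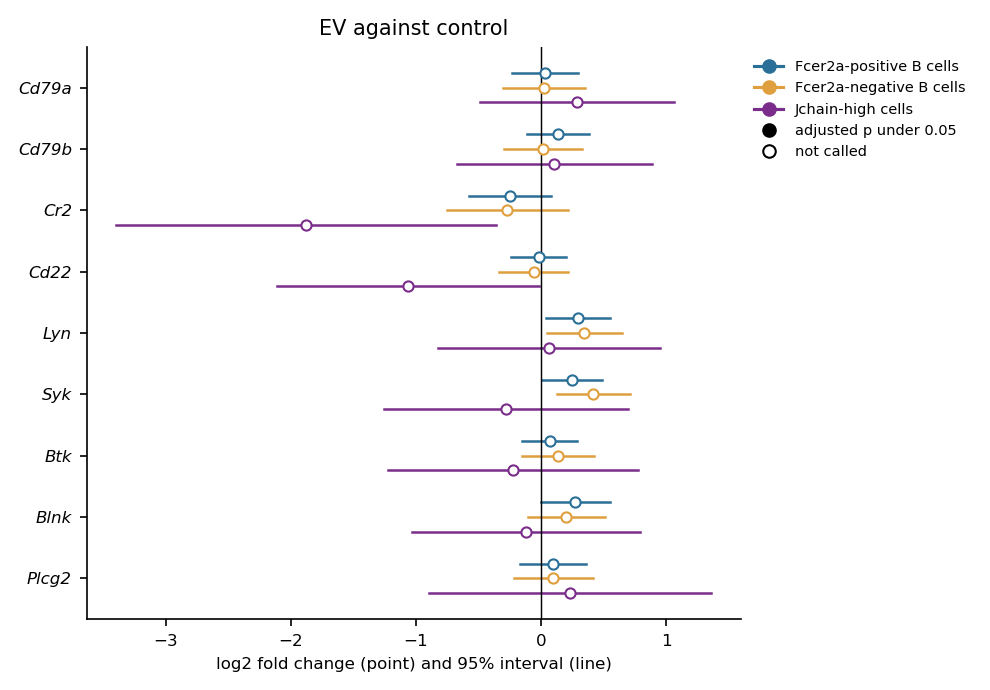
Log2 fold change of EV against control (horizontal axis) for the 9 genes in the 3 gates, with points for edgeR's estimates and lines for 95% intervals of 2 against 2 libraries. All points are open, since no member had an adjusted p under 0.05, and the intervals in Jchain-high cells, such as -3.40 to -0.36 for Cr2, are the widest in the plot.

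In Jchain-high cells the EV comparison rested on few cells, and 0% of the 3361 genes tested were called by edgeR, with 147 genes at an unadjusted p under 0.05. DESeq2 and limma with voom weights also called 0 genes. The upper limits on cells took unequal numbers of Jchain-high barcodes from the groups. They left out 2 and 3 from control libraries 1 and 2, and 37 and 46 from EV libraries 1 and 2. The EV arm therefore lacked more such barcodes than it kept, which were 25 and 27. With no upper limits and a mitochondrial limit of 5%, edgeR called 31 of 7671 genes, none of them a member. Cr2 had levels of 107 and 247 CPM in control against 11.0 and 91.5 in EV Jchain-high cells, from 6 and 32 UMIs against 3 and 28 UMIs. The EV libraries were below the control libraries, and the log2 fold change was -1.88 (-3.40 to -0.36, edgeR adjusted p = 0.999). Cr2 was the only member whose groups did not overlap in this gate, where 32.9% of all genes tested did not overlap. Cd22 was at 107 and 309 against 91.9 and 121, with a log2 fold change of -1.06 (-2.11 to -0.02, edgeR adjusted p = 0.999), and control library 1 lay between the EV libraries. The other 7 members had log2 fold changes from -0.28 (Syk) to 0.29 (Cd79a), with intervals that reached to both sides of 0. Against the effect in Fcer2a-positive B cells, that on Cr2 in Jchain-high cells was 1.54 lower on the log2 scale, at a log2 difference of -1.54 (-2.53 to -0.55, edgeR adjusted p = 0.561), and no member was called among 0.122% of 11449 genes called. Without EV library 2, which left 3 UMIs of Cr2 in the EV arm, the Cr2 change in Jchain-high cells was -3.88 and was called (adjusted p = 0.00142).

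Between the gates of the same libraries, Fcer2a-negative B cells carried less Cr2 and less Cd22 RNA than Fcer2a-positive B cells, while the receptor chains differed little. Cr2 fell from 410, 468, 297 and 420 CPM in Fcer2a-positive to 321, 335, 187 and 356 in Fcer2a-negative B cells (in the order control 1, control 2, EV 1, EV 2, as in each series of 4 values below). Cd22 fell from 284, 295, 259 and 295 to 235, 242, 214 and 240. Both were lower in 4 of 4 libraries. Cr2 differed by -0.43 ± 0.055 on the log2 scale (SE, adjusted p by edgeR = 8.76e-05) and Cd22 by -0.28 ± 0.041 (adjusted p = 0.000334), or ratios of 0.741 and 0.826. So 2 of 9 members were called lower and 0 higher, where 3.99% of 12164 genes were called lower and 6.46% higher, and the members' median was -0.09 against -0.01 over all genes. Lyn, Blnk and Plcg2 were also lower in 4 of 4 libraries, but at log2 fold changes of -0.09, -0.09 and -0.12 they were not called (edgeR adjusted p = 0.0888, 0.129 and 0.0615). Cd79a and Cd79b, at -0.03 and -0.04, had intervals within -0.11 to 0.04.

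The Fcer2a gate depends on depth, since a shallow cell can lack an Fcer2a UMI by chance. Among B cells, 83.4% of control and 79.9% of EV cells were Fcer2a-positive, and when each cell was thinned to 1000 UMIs these means were 39.6% and 31.9%. With gates set on the thinned cells the log2 fold change of Cr2 was -0.20 (edgeR adjusted p = 0.131) and that of Cd22 was -0.10 (adjusted p = 0.831), and neither was called, in a fit that called 34 genes in all. With the gates kept as they were and only the readout thinned, an alternative chosen after seeing the data, Cr2 was at -0.39 and still called (edgeR adjusted p = 5.75e-05), while Cd22 was at -0.15 and not called (adjusted p = 0.34).

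**Figure D3:**
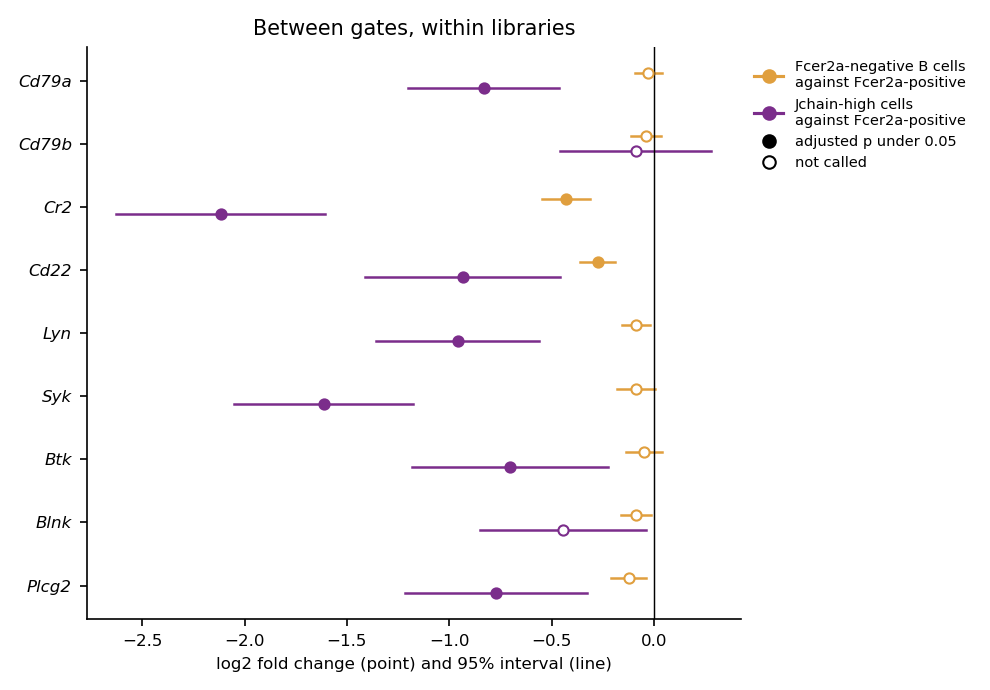
Log2 fold change between gates of the same 4 libraries (horizontal axis) for the 9 genes, orange for Fcer2a-negative and purple for Jchain-high cells, each against Fcer2a-positive B cells. Points are edgeR's estimates, lines are 95% intervals and filled points have an adjusted p under 0.05, which in Fcer2a-negative B cells are Cr2 at -0.43 and Cd22 at -0.28, and in Jchain-high cells 7 of the 9 genes.

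As a share of the gate's UMIs, 7 of the 9 members were called lower in Jchain-high than in Fcer2a-positive B cells. The largest drops were in Cr2 and Syk. Jchain-high cells were deeper, at a median of 7697.5 to 13262 UMIs per cell against 4244 to 5965. The mean number of a member's UMIs per cell was lower in every library for Cr2 and Syk. For Cd79a, Cd22, Lyn, Plcg2 and Btk it went both ways between libraries. That of Cd79a was 6.875, 11.3, 12.3 and 19.8 in Jchain-high cells against 10.7, 12.5, 15.4 and 14.2. The sum of 8 plasma cell markers was 10084, 2748, 5557 and 3163 CPM in Jchain-high cells and 416 to 490 in Fcer2a-positive B cells. Jchain, the gene that set the gate, is among these markers, so a higher sum was fixed in part by the gate. Of the same list, Sdc1, which encodes the plasma cell marker CD138, was at 53.5 and 25.7 CPM in control library 1 and EV library 1 and at 0 in the other 2 libraries. The sum of 7 B cell markers, which include Pax5, Ebf1 and Bank1, was lower in every library. It was 10620, 13781, 9871 and 14542 CPM in Jchain-high cells against 21839, 21993, 23074 and 25845 in Fcer2a-positive B cells. Marker sums of other cells went both ways. The sum of 6 dendritic cell markers was higher, at 53.5 to 69.5 CPM against 11.9 to 27.1, although 4 of the 6 genes had no UMI in Jchain-high cells. Macrophage and NK cell markers were lower, at 0 to 16.3 and 0 CPM against 18.5 to 37.7 and 1.37 to 16.2 in Fcer2a-positive B cells. T cell markers were at 357, 46.3, 25.7 and 29.4 against 36.1 to 45.2. The sum of 7 germinal center B cell markers was 938 to 1390 CPM in Jchain-high cells and 167 to 256 in Fcer2a-positive B cells. Control library 1, with 8 cells, also held 982 CPM of the 5 plasmacytoid dendritic cell markers, against 15.4 to 62.5 in the other libraries. Sums of 6 cycling genes were 875 to 2019 in Jchain-high cells and 11.9 to 21.1 in Fcer2a-positive B cells. The part of this mixture in the differences was not tested.

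Cr2 was at 107, 247, 11.0 and 91.5 in Jchain-high cells, each below its level in Fcer2a-positive B cells of the same library, and the log2 fold change was -2.12 (-2.63 to -1.61, edgeR adjusted p = 1.79e-14). Syk was at 161, 340, 154 and 281, below the Fcer2a-positive level in 4 of 4 libraries, at a log2 fold change of -1.61 (-2.05 to -1.18, adjusted p = 1.4e-11 by edgeR). Lyn, at 357, 618, 401 and 650, had a log2 fold change of -0.96, and Cd79a, at 982, 1312, 1129 and 1745, one of -0.83, each lower in 4 of 4 libraries. With the readout thinned the log2 fold changes of Syk, Lyn and Cd79a were larger, at -3.16, -2.26 and -1.87. For Syk the thinned value rested on 1, 0, 3 and 6 UMIs in Jchain-high cells. With stricter gates edgeR did not call Cd79a (-1.84, adjusted p = 0.066), Plcg2 (-1.24, 0.23) and Btk (-1.86, 0.0733). The stricter Jchain-high gate held only 3, 2, 6 and 4 cells. Cd22, at -0.94, was lower in 3 of 4 libraries, since control library 2 had 309 in Jchain-high cells and 295 in Fcer2a-positive B cells. Plcg2 and Btk fell by 0.77 and 0.70 on the log2 scale, and limma with voom weights, chosen after seeing the data, did not call these 2 (adjusted p = 0.0628 and 0.0861) while it called the other 5, from Syk (0.000526) to Cd22 (0.0378). Blnk, at 446, 502, 298 and 605, was not called (log2 fold change -0.45, edgeR adjusted p = 0.0841). The 7 members called lower compare with 17.4% of 11449 genes called lower and 14.8% called higher, and the members' median was -0.83 against -0.25 over all genes tested. Without control library 1 the call of Plcg2 was lost (-0.54, adjusted p = 0.0582). Without EV library 2 that of Cd22 was lost (-0.88, adjusted p = 0.0524), and Btk was not called without any one of control library 2, EV library 1 and EV library 2 (adjusted p from 0.0603 to 0.0813).

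Cd79b was not called in the Jchain-high gate. It was at 1035, 1428, 1066 and 1654 CPM, lower than in Fcer2a-positive B cells in 2 of 4 libraries, with a log2 fold change of -0.09 (-0.46 to 0.28, edgeR adjusted p = 0.757). With the readout thinned it was at -0.86 (adjusted p = 0.0536 by edgeR), and with the gates also set on thinned cells it was called lower, at -3.49 (edgeR adjusted p = 1.27e-07). The Jchain-high gate set on thinned cells held only 4, 3, 3 and 3 cells. The number of Cd79b UMIs per Cd79a UMI was 0.578, 0.577, 0.604 and 0.640 in Fcer2a-positive B cells (mean 0.600 ± 0.0295, SD, n = 4) and 0.596 ± 0.0256 in Fcer2a-negative B cells. In Jchain-high cells it was 1.05, 1.09, 0.945 and 0.948 (mean 1.01 ± 0.0736), above both B cell gates in every library. With the readout thinned it was 2.67, 2.15, 1.16 and 0.608, over only 3, 13, 25 and 51 UMIs of Cd79a. In EV library 2 this thinned ratio lay below the 0.642 and 0.682 of the B cell gates. The exact two-sided permutation test was not applied to this ratio, which was examined after its values had been seen.

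The Jchain-high cells without an Ms4a1 UMI numbered 18 in all 4 libraries, with 78381 UMIs. Among them Cr2 and Cd22 had no UMI in any library, and a count of 0 allows a level of up to 38.3 CPM (3 counts over the 4 libraries, counting error only). Syk and Plcg2 each had 1 UMI in EV library 1 and 1 in EV library 2, and Lyn and Btk had UMIs in EV library 2 only, 2 and 1. Cd79b had 4, 0, 37 and 12 UMIs and Blnk had 3, 1, 15 and 3. With these 18 cells compared with Fcer2a-positive B cells with under 5 Jchain UMIs, Cd79b was called lower at a log2 fold change of -2.08 (edgeR adjusted p = 0.00178) and Blnk at -1.93 (adjusted p = 0.0123), where 14.9% of 10869 genes were called lower. Cd79b was also called lower with no upper limits on cells (-0.40, edgeR adjusted p = 0.00345).

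The other genes of the pathway were 89 genes on 6 lists, and 7 of them were called in EV against control. Of all genes tested, 3.23% were called in Fcer2a-positive and 1.04% in Fcer2a-negative B cells. Among the early response genes, which BCR signals induce rapidly, called genes were found in both directions. Cd83, a membrane protein of activated B cells, rose in Fcer2a-positive B cells from 314 and 287 CPM in control to 648 and 756 in EV libraries. Its log2 change of 1.27 ± 0.115 (SE) was called (edgeR adjusted p = 0.000613), and in Fcer2a-negative B cells it rose from 279 and 250 to 489 and 526 (0.96, adjusted p = 0.00686). Egr3, a zinc finger transcription factor induced by antigen receptors, fell in Fcer2a-positive B cells from 63.1 and 52.9 to 29.9 and 30.3 (log2 fold change -0.90, edgeR adjusted p = 0.0018). Egr3 also fell in Fcer2a-negative B cells, from 57.9 and 37.7 to 19.9 and 22.9 (-1.15, adjusted p = 0.0271). Egr1, of the same family, fell from 14.6 and 17.4 to 5.17 and 6.36 in Fcer2a-negative B cells (-1.47, adjusted p = 0.0437), and in Fcer2a-positive B cells its levels of 23.7 and 16.3 against 12.9 and 12.1 missed the threshold (adjusted p = 0.0608). In all, 1 early response gene rose and 1 fell of 9 tested in Fcer2a-positive B cells, and 1 rose and 2 fell of 6 tested in Fcer2a-negative B cells. The median of the list was 0.36 and 0.11 on the log2 scale.

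**Figure D4:**
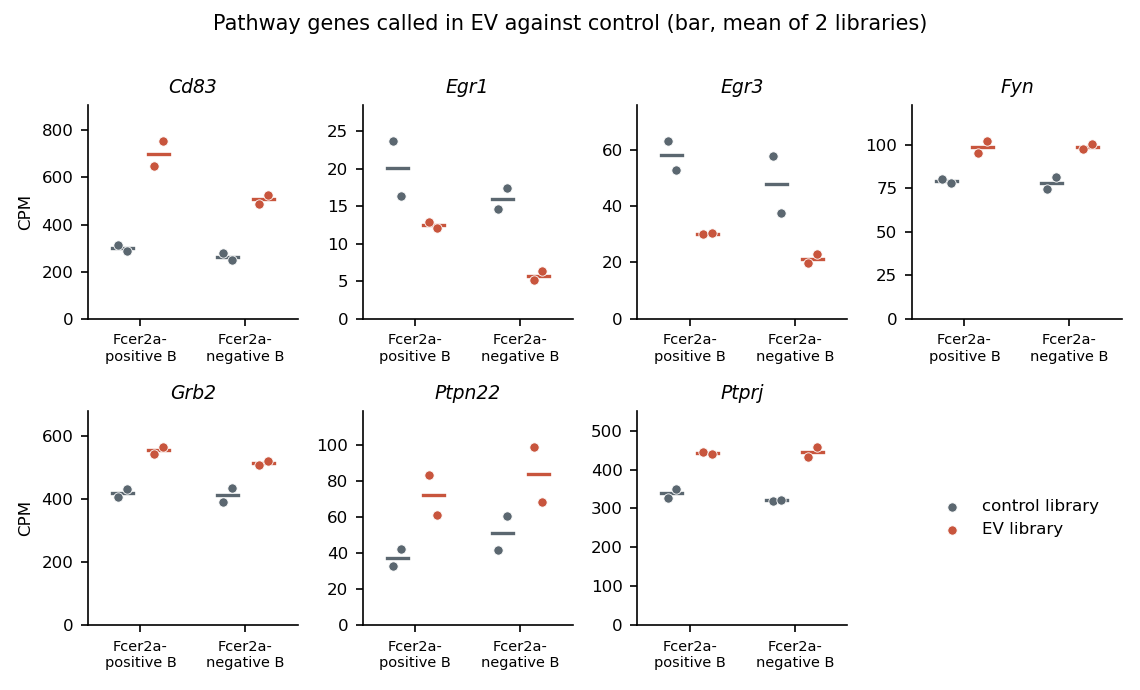
Level in CPM (vertical axes from 0) of the 7 other pathway genes called in EV against control in at least 1 B cell gate. Points are libraries, gray for control and red for EV, and bars are means of 2 libraries. In Fcer2a-positive B cells Cd83 lies at 648 and 756 in the EV libraries against 314 and 287 in the control libraries, and Egr3 at 29.9 and 30.3 against 63.1 and 52.9.

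The list of inhibitory receptors and phosphatases, called the inhibitory list for short, had 2 of 17 genes called higher in Fcer2a-positive B cells. Both were phosphatases, and 3.23% of all genes tested were called in either direction. Ptpn22, a phosphatase that restrains Src family kinases, rose from 32.9 and 41.9 to 83.0 and 60.7 CPM (log2 fold change 0.99, edgeR adjusted p = 0.00854), and Ptprj, the receptor phosphatase CD148, rose from 328 and 350 to 445 and 439 (0.43, adjusted p = 0.0434). Among coreceptors and activating partners 1 of 12 was called, the Src family kinase Fyn, at 80.6 and 77.9 against 95.4 and 102 (0.36, edgeR adjusted p = 0.0451). Among adaptors and the PI3K arm 1 of 15 was called, Grb2, an adaptor between receptors and Ras, at 406 and 433 against 543 and 566 (0.45, adjusted p = 0.0418 by edgeR). None of 23 genes of the calcium, protein kinase C and Ras arm and none of 11 B lineage transcription factors was called, with 4 and 2 at an unadjusted p under 0.05, against 18.5% of all genes. In Fcer2a-negative B cells none of these 5 lists had a called gene by edgeR, with 2 to 7 genes per list at an unadjusted p under 0.05, against 12.0% of all genes, and no gene of the 7 differed in its effect between the B cell gates past the threshold (smallest adjusted p = 0.438, Cd83). Without EV library 1, and likewise without EV library 2, edgeR called 0 of all genes in Fcer2a-positive B cells, with 2863 and 1630 genes at an unadjusted p under 0.05. The log2 fold changes of Cd83 were then 1.37 and 1.15 (adjusted p = 0.14 and 0.137) and those of Egr3 -0.90 and -0.91 (adjusted p = 0.159 and 0.213), and Fyn, Ptprj and Grb2 were not called without TMM factors either (adjusted p = 0.0731, 0.0609 and 0.0588). With cells thinned to 1000 UMIs Fyn was at 0.04 (edgeR adjusted p = 0.981), and Ptpn22 at 1.09, Ptprj at 0.27 and Grb2 at 0.37 were not called (adjusted p = 0.052, 0.57 and 0.285). In Fcer2a-negative B cells Cd83 missed the threshold without control library 1 or control library 2 (edgeR adjusted p = 0.0506 and 0.106), Egr3 without control library 1 (0.175), and DESeq2 called neither Egr3 nor Egr1 (0.0802 and 0.384).

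Several positive parts of the pathway were called lower in Fcer2a-negative than in Fcer2a-positive B cells, where 3.99% of all genes were called lower and 6.46% higher. Of the adaptors, 6 of 15 were lower and 0 higher, among them Bank1, a scaffold for Lyn and calcium channels (log2 fold change -0.34), Pik3cg (-0.28) and Pik3r1 (-0.24), subunits of PI3 kinases. Of the calcium and Ras arm, 8 of 23 were lower and 1 higher, with Rasgrp3, a Ras activator, at -0.40, Rel at -0.25 and Prkcb at -0.25. Of the coreceptor partners 3 of 12 were lower, Vav3 (-0.29), Fcrl1 (-0.24) and Ptprc (-0.23). Of the B lineage transcription factors 5 of 11 were lower, with Pax5 at -0.34, Bach2 at -0.26 and Ikzf3 at -0.23. Of the early response genes 4 of 9 were lower, with Egr1 at -0.74, Egr3 at -0.40 and Cd83 at -0.35. The named genes were lower in 4 of 4 libraries except Egr1, in 3 of 4, and the list medians ran from -0.05 to -0.40 against -0.01 over all genes. The inhibitory list differed, with 4 of 18 higher and 2 lower and a median of -0.01. Fcrl5, an Fc receptor-like inhibitory receptor, was 1.51 higher on the log2 scale in 4 of 4 libraries (edgeR adjusted p = 5.86e-07). Cd300a and Lair1, inhibitory receptors that myeloid cells also carry, were 2.73 and 1.40 higher. The sum of 8 macrophage markers was 44.9 to 71.8 CPM in Fcer2a-negative against 18.5 to 37.7 in Fcer2a-positive B cells. Sums of 6 cycling genes were 68.7, 235, 130 and 90.6 against 11.9 to 21.1. The sum of 7 B cell markers, which include Pax5 and Bank1, was lower, at 20554, 19046, 21388 and 24364 against 21839, 21993, 23074 and 25845. T cell markers went both ways, at 37.9, 92.7, 35.2 and 48.9 against 45.2, 44.6, 36.1 and 41.6. The part of these sums in the differences was not tested. With cells thinned to 1000 UMIs, where 34 genes were called in all, most of the calls named here were lost, and Vav3 was at -0.03, Pik3r1 at -0.02, Ptprc at -0.04, Ikzf3 at -0.04 and Rasgrp3 at -0.16 (edgeR adjusted p = 0.987, 0.995, 0.843, 0.885 and 0.597).

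In Jchain-high cells the genes of these lists were called lower more often than higher, where 17.4% of all genes were called lower and 14.8% higher. The counts of genes lower and higher than in Fcer2a-positive B cells were 6 and 1 of 12 for coreceptor partners. They were 9 and 0 of 17 for inhibitory receptors and phosphatases and 6 and 1 of 15 for adaptors. For the calcium and Ras arm they were 11 and 0 of 23. For early response genes they were 4 and 0 of 8, and for transcription factors 6 and 3 of 11. Bank1 was at a log2 fold change of -2.75 and the calcium channel Itpr1 at -2.50. The calcineurin subunit Ppp3ca was at -2.03 and the paracaspase Malt1 at -1.92. On the list of transcription factors Klf2 was at -3.49 and Ebf1 at -1.46. Each of these genes was lower in 4 of 4 libraries. Akt1, a kinase of the PI3K arm, was 1.88 higher, in 4 of 4 libraries, and was at -0.48 in the gates made disjoint. Some genes had 1 to 3 UMIs in all Jchain-high cells. Klf3, on the list of transcription factors, had 3 UMIs, at a ratio of 0.0394 to its level in Fcer2a-positive B cells (exact 95% counting interval 0.00812 to 0.115).

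Counted by cell, a UMI of Cd79a was found in 99.6% to 99.9% of Fcer2a-positive B cells and in 3.53% to 8.56% of T cells, which were deeper, at a median of 6454 to 8803 UMIs. For Cr2 the shares were 63.8%, 71.2%, 60.7% and 70.2% in Fcer2a-positive B cells, in the order control 1, control 2, EV 1, EV 2, then 54.2%, 53.8%, 46.2% and 63.5% in Fcer2a-negative B cells, and 1.34% to 1.94% in T cells. Thinned to 1000 UMIs per cell, with the gates kept as they were, the Cr2 shares were 28.3%, 29.5%, 21.3% and 29.2% in Fcer2a-positive and 20.5%, 21.1%, 15.3% and 27.5% in Fcer2a-negative B cells, and EV library 1 was again the lowest in both gates. The median number of members with a UMI in the same cell was 7 to 8 in both B cell gates and 0 in T cells. In Jchain-high cells it was 1.5, 8, 5 and 8 of the 9 members.

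The genes with the most similar pattern to each member were found by Pearson correlation of log levels over 20 profiles, namely the 3 gates, T cells and cells with at least 3 UMIs of C1q genes in 4 libraries, among 3342 genes. The profiles of a library share its depth, and most of the variation lies between B cells and other cells. Tnfrsf13c, the BAFF receptor, came first for Cd79a (r = 0.980), Lat2 for Cd79b (0.983), Baz2b for Cr2 (0.979) and Swap70 for Cd22 (0.978). Napsa came first for Lyn (0.984), Dok3 for Syk (0.975), Snx8 for Btk (0.992), Cd180 for Blnk (0.987) and Myo1e for Plcg2 (0.984). Dok3, an adaptor that inhibits BCR signals, was among the closest 3 genes of Cd22, Syk and Blnk.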

How the data were processed

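Single-cell RNA was measured with the 10x 3′ v3.1 method in 2 control and 2 EV libraries, grouped by the labels. The authors deposited raw UMI counts per gene and barcode for each library, which the submitters' processing notes credit to Cell Ranger 7.1.0 and the build mm10. The annotation release is not given in the sources used here.

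Of 34323 barcodes, 32725 with 200 to 5000 genes, at most 20000 UMIs and under 10% mitochondrial UMIs were kept. Doublets called by Scrublet (expected rate 6%) were kept and their removal was an alternative. Counts were summed per library and gate, with totals of 10250884 to 22785451 UMIs in Fcer2a-positive and 1847849 to 6192431 in Fcer2a-negative B cells. Sums were tested, two-sided, with edgeR 4.0.16 (quasi-likelihood test, filterByExpr, TMM factors, Benjamini-Hochberg adjustment over all genes tested, call at an adjusted p under 0.05). EV was compared with control within each gate, and levels and EV effects between gates with library as a block. In the tests of Jchain-high against Fcer2a-positive B cells, cells can belong to both gates. Intervals are 95% and unadjusted. Single values were compared by exact permutation. Simulated data were used to test the edgeR fit of EV against control in Fcer2a-positive B cells. They were also used for the level of Fcer2a-negative against Fcer2a-positive B cells. The other fits, among them all those of Jchain-high cells and of differences in the EV effect, were not simulated.

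The members and lists were chosen with earlier results of these data known. All members were named, and from the 6 other lists the genes called in EV against control in at least 1 gate and up to 3 called genes per list and gate contrast with the largest change. Some results that this rule takes are not reported here. Alternatives were DESeq2 1.42.0, other library sizes, no filterByExpr, a replicate block, cells thinned to 1000 UMIs, other limits on cells (no upper limits with 5% mitochondrial UMIs, or 60% ribosomal UMIs), doublets removed, stricter gates (at least 2 UMIs of Ms4a1 and Fcer2a and 20 of Jchain), disjoint gates, each library left out and, chosen after seeing the data, a readout thinned to 1000 UMIs in unchanged gates and limma voom. Software was Python 3.11.15, numpy 2.4.6, scipy 1.17.1, pandas 2.3.3, scanpy 1.11.5, matplotlib 3.10.9, R 4.3.3 and limma 3.58.1.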

Additional observations from a re-analysis of the deposited data

Results flagged for a closer look

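Barcodes over 5000 genes or 20000 UMIs were left out of the comparisons above, other than the alternative with no upper limits, and Jchain-high cells were frequent among them in the EV libraries. They made up 37 of 218 such barcodes in EV library 1 and 46 of 234 in EV library 2, a mean of 18.3%, against 2 of 50 and 3 of 83 in the control libraries, a mean of 3.81%. The B cell gates were also more frequent among the EV barcodes of this kind, as they were among the kept cells. The means were 21.0% against 4.6% for Fcer2a-positive and 7.76% against 1.81% for Fcer2a-negative B cells. The control means rested on only 4 and 1 Fcer2a-positive and 0 and 3 Fcer2a-negative barcodes. This signal in data outside the comparisons drew attention because the EV libraries exceeded the control libraries. In the 83 EV cells Cd79a was at 945 and 938 CPM, Cr2 at 102 and 83.9 and Syk at 237 and 300. In the 5 control cells Cd79a was at 824 and 662, Cr2 at 401 and 59.1 and Syk at 275 and 248.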

How the results depend on the processing

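Counts of called genes moved with the processing, and in EV against control at most 1 member was called in any gate and setting. In Fcer2a-positive B cells the 408 calls of EV against control became 74 with cells thinned, 141 with only the readout thinned and 0 to 550 with 1 library left out. In Fcer2a-negative B cells the 106 calls became 443 without filterByExpr, 169 thinned, 186 with stricter gates, 197 with disjoint gates and 59 to 301 with 1 library left out, and in Jchain-high cells the 0 calls became 1 with library sizes without ribosomal, mitochondrial and heat shock genes, 26 without filterByExpr, 31 without upper limits and 2 to 26 with 1 library left out. The labels tie replicate numbers to no shared animal or batch, and deviations of libraries with the same number correlated at 0.03, -0.01 and 0.13 in the 3 gates. With them as a replicate block the calls were 1179, 248 and 21, and the contrasts between gates already hold library as a block. Members called in EV against control went from 0 to 1 with DESeq2 in Fcer2a-positive B cells (Lyn) and to 0 to 1 with 1 library left out in the other gates (Cr2). Differences of the EV effect between the B cell gates (7 calls) became 3 with DESeq2, 4 without TMM, 4 without the ribosomal, mitochondrial and heat shock genes, 52 without filterByExpr, 0 thinned (416 genes at an unadjusted p under 0.05), 1 without upper limits, 24 with stricter gates and 6 to 163 with 1 library left out, with 0 to 1 members. For Jchain-high cells (14 calls) they became 0 with DESeq2, thinned, with disjoint gates, with the readout thinned and with limma voom (164, 10, 53, 163 and 865 unadjusted), 9 without filterByExpr, 120 without upper limits, 1 with stricter gates and 4 to 21 with 1 library left out. Level differences of Fcer2a-negative B cells (1271 calls, 2 members) became 634 with DESeq2, 34 thinned (0 members), 261 with the readout thinned (1 member, Cr2) and 778 to 1026 with 1 library left out. There were 6 members among 1575 calls without filterByExpr and 4 among 1517 without upper limits. Level differences of Jchain-high cells (3693 calls, 7 members) became 944 thinned, 6248 without upper limits, 956 with stricter gates (4 members, without Cd79a, Plcg2 and Btk), 1794 with disjoint gates, 1295 with the readout thinned and 2214 to 3501 with 1 library left out. Every member was among the 944 and the 1794 calls, some of them with no UMI in the Jchain-high gate. The difference of the Jchain-high share, in percentage points, turned to -0.0077 thinned and to -0.0020 with disjoint gates.

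Some values changed sign, and the cause was not tested. Most of these were near 0 in the main fit. Akt1 in Jchain-high cells (1.88) and Egr3 between the B cell gates (-0.40) were not, and both were called there. Cr2 for EV against control in Fcer2a-negative B cells, at -0.27, was not near 0 either. In EV against control in Fcer2a-positive B cells Cd79a was -0.015 without TMM, -0.031 without upper limits and -0.0066 to 0.064 with 1 library left out, Cd22 was 0.0078 without filterByExpr, 0.0030 with stricter gates and -0.12 to 0.067 with 1 left out, Btk was -0.21 thinned and -0.032 to 0.16 with 1 left out, and Plcg2 was -0.075 to 0.24 with 1 left out. In Fcer2a-negative B cells Cd79a and Cd79b were -0.11 and -0.10 without upper limits and -0.072 to 0.13 and -0.050 to 0.090 with 1 left out, Cd22 was 0.0031 thinned and -0.12 to 0.0048, Cr2 -0.78 to 0.12 and Plcg2 -0.073 to 0.26 with 1 left out. Between the B cell gates Cd79a was 0.017 with stricter gates and -0.058 to 0.0097 with 1 left out, Plcg2 0.053 with the readout thinned, Cd79b 0.029 thinned and 0.0091 with the readout thinned, Blnk 0.074 thinned, Btk 0.087 thinned and 0.0034 with the readout thinned, and Egr3 0.018 thinned. In Jchain-high cells Cd79b was -0.28 to 0.015 with 1 left out, and Akt1 was -0.48 with disjoint gates. Of the other values of single genes, 1265 kept their direction and side of the threshold, 105 lost the call and 19 gained it. Fits of a gene with no UMI in a group were left out.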
